A study of Sus scrofa with 6 samples.

Results

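Transcripts of the subcortical maternal complex and of other maternal-effect genes were examined in porcine embryos at the 2-cell stage, after injection of control or SIN3A siRNA. The members were 10 genes listed by symbol, NLRP5, TLE6, OOEP, KHDC3L, PADI6, NLRP2, ZBED3, NPM2, DPPA3 and NLRP14, and a row was taken only where the gene name in the deposited table equalled one of them. Of the 10, 4 were found among 17678 genes, PADI6, OOEP, NPM2 and ZBED3. The remaining 6 were not found by name and were not analysed here. The table leaves 3575 identifiers without a name, and none of the 837 of these that a reference table of identifiers names is one of the 6.

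Both groups came from oocytes of crossbred pigs (Landrace × Yorkshire × Duroc) that were matured in culture, injected with siRNA at metaphase II and activated without sperm. NC embryos received a non-specific siRNA and KD embryos a mixture of 3 siRNAs against SIN3A, the scaffold of a histone deacetylase repressor complex. Each group had 3 libraries, each made from 20 pooled embryos taken 32 h after activation. Parthenogenetic embryos carry no paternal genome, and messenger RNA was captured by its poly(A) tail, so a stored transcript with a short tail can be under-represented.

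Maternal-effect genes act in the embryo through RNA or protein that the oocyte stored, before the embryo's own genome is switched on. The subcortical maternal complex is a protein assembly beneath the oocyte and embryo cortex that is needed for early cleavage, and it contributes to the fibrous cytoplasmic lattices of the egg. OOEP, KHDC3L, TLE6 and NLRP5 are its core subunits, and PADI6, NLRP2 and ZBED3 are associated with it. NPM2 and DPPA3 act on chromatin instead, as a histone chaperone of the egg and as a protector of maternal DNA methylation.

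The targeted gene was checked first. SIN3A had values of 32404 to 37361 in NC and 1079 to 4173 in KD libraries (adjusted p = 8.45e-06 by limma), with every KD library below every NC library. Its adjusted p was 0.423 when the variance trend was left out and 0.469 with a robust variance step, at the same fold. Judged from the smallest steps between low values, depth was about 7800000 to 13000000 reads for NC libraries and 10200000 to 15700000 for KD libraries. All 11 oocyte markers were found. Of the 10 tested, 6 had a log2 fold change above 0 and 4 below, with a median of 0.016. The lowest was -0.178 for BTG4. The highest was 0.132 for BMP15, an oocyte growth factor with a mean of 20209 in NC and 22180 in KD embryos. Of 17 markers of cumulus and granulosa cells, which surround the oocyte in the follicle, 14 were found and 4 reached the mean value of 10 needed for testing. Their summed value was 846 to 993 in NC and 821 to 940 in KD libraries, of which VCAN alone gave 735 to 925. The others tested were COL1A2 with means of 38.2 in NC and 41.0 in KD embryos, STAR with 13.3 and 17.6, and INHBA with 14.9 and 9.38. Of the 10 below that level, CYP19A1 went from 1.83 to 7.74 and FOXL2 from 1.68 to 5.97. In replicate order their KD values were 9.27, 3.26 and 10.7 for CYP19A1 and 1.95, 2.90 and 13.1 for FOXL2. PTX3 went from 1.51 to 0, and LHCGR, AMH, LUM and TNFAIP6 had means below 1 in both groups. Of the blood markers, HBB had a value of 74.9 in NC replicate 1 and at most 1.96 in the other libraries, while PTPRC and CD68 had means below 10. None of the 10 oocyte, 4 cumulus and 1 blood markers tested was called or had an unadjusted p below 0.05.

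PADI6 (ENSSSCG00000003484) encodes an egg-specific member of the peptidylarginine deiminases, a family that converts arginine to citrulline, and is required for the cytoplasmic lattices. The gene spans positions 75969855 to 75987097 of chromosome 6 (Sscrofa11.1, plus strand) and has 16 exons. In replicate order, its normalized abundance was 5835, 6504 and 6077 in the NC libraries and 7510, 6393 and 5210 in the KD libraries. The highest and the lowest library were both KD, and all 3 NC values lay between them. NC embryos averaged 6139 ± 339 and KD embryos 6371 ± 1150 (SD, n = 3 each). KD differed from NC by 0.04 on the log2(value + 1) scale, with a standard error of 0.11 (limma adjusted p = 0.997). The 95% interval of the fold ran from 0.875 to 1.21. With the variance trend left out, the standard error was 0.157, so this interval is narrower than in that fit. In an exact two-sided permutation test p was 0.9, where 3 against 3 libraries cannot give less than 0.1.

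OOEP (ENSSSCG00000004285) encodes a small KH-domain protein, also called FLOPED, whose loss in the mouse dissolves the complex. Its 3 exons span positions 53006898 to 53007877 of chromosome 1, minus strand. The NC libraries held 421, 498 and 408 and the KD libraries 489, 455 and 364, in replicate order. The groups overlapped, with an NC library highest and a KD library lowest. NC embryos averaged 442 ± 48.7 and KD embryos 436 ± 64.8 (SD, n = 3 each). The difference was -0.03 on the log2 scale, with a standard error of 0.14 (limma adjusted p = 0.997), and the 95% interval of the fold ran from 0.802 to 1.20. By exact permutation, two-sided, p was 0.9. With the GC content and length correction described below the difference had the other sign, at 0.05.

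NPM2 (ENSSSCG00000009610) encodes nucleoplasmin 2, a histone chaperone of the egg that helps to remodel sperm chromatin and to organize the nucleoli of the embryo. It occupies positions 6288422 to 6303750 of chromosome 14, plus strand, and its longest mRNA has 9 exons. In replicate order, NC libraries had 471, 412 and 510 and KD libraries 401, 433 and 467. The lowest library was KD and the highest NC, but the ranges overlapped. NC embryos averaged 464 ± 49.1 and KD embryos 433 ± 33.0 (SD, n = 3 each). The log2 difference was -0.10, its standard error 0.13 (limma adjusted p = 0.997), and the fold had a 95% interval from 0.778 to 1.12. By exact permutation, two-sided, p was 0.4.

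ZBED3 (ENSSSCG00000014095) encodes a BED zinc finger protein that binds Axin and was assigned to the complex in the mouse. It occupies positions 85945357 to 85958452 of chromosome 2, minus strand. Its abundance in replicate order was 0, 10.4 and 4.08 for NC and 4.89, 1.47 and 0 for KD. At the estimated depths these values stand for about 0, 7 and 5 reads for NC and 5, 2 and 0 reads for KD. ZBED3 therefore fell below the mean of 10 needed for testing, and a difference between the groups was not detectable at this depth. When every gene was fitted without that filter, its log2 fold change was -0.66 with a 95% interval from -2.41 to 1.08.

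**Figure D1:**
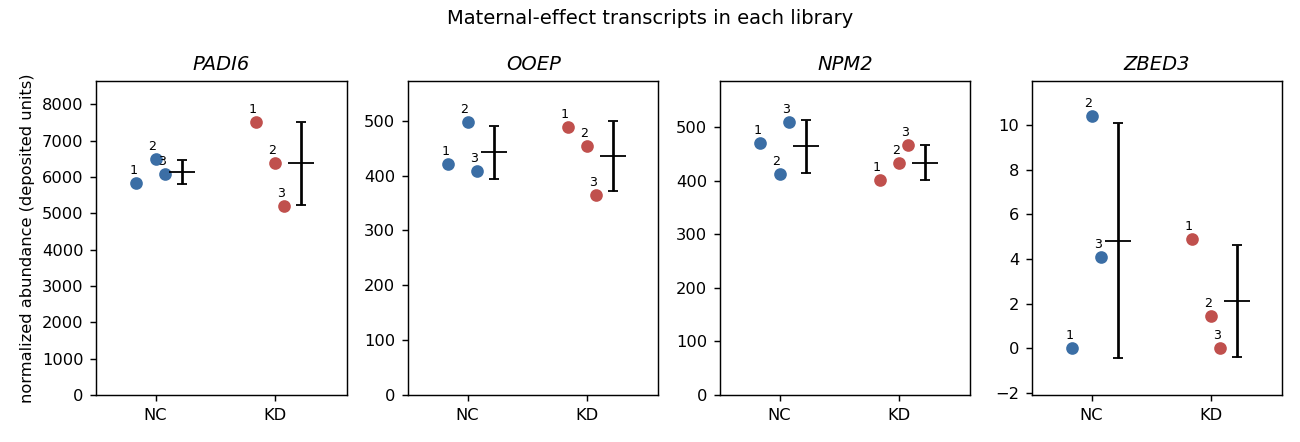
Normalized abundance (vertical axis, deposited units, separate scale for each gene) of PADI6, OOEP, NPM2 and ZBED3 in the NC and KD libraries (horizontal axis). Points are single libraries numbered by replicate, and the bar beside them is the mean with SD (n = 3). The groups overlap in each of the 4 genes, and the KD values of PADI6 spread from 5210 to 7510, wider than the NC values from 5835 to 6504.

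Of the 3 members tested, 0 were called at an adjusted p below 0.05 by limma, 0 had an unadjusted p below 0.05 and 0 had groups that did not overlap. Among all 11986 genes tested, 0.159% were called, 553 genes had an unadjusted p below 0.05, and 9.79% had groups that did not overlap. For all 3 members the 95% interval lay within the log2 fold change of 0.8 in either direction that the study used as its threshold. A change smaller than these intervals was not resolved, and the lowest bound, that of NPM2, was 0.778 of the NC level.

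Levels were compared between genes per kilobase of the longest RefSeq mRNA. PADI6 was the highest member, with 2549 per kb in NC embryos (2423 to 2701 over the libraries). This was above 98.9% of the 10353 tested genes with a RefSeq mRNA. OOEP followed with 989 per kb (912 to 1114), above 94.7% of these genes, and NPM2 with 254 per kb (225 to 279), above 77.2%. ZBED3 was last with 0.899 per kb (0 to 1.94). The ranges of neighbours in this order did not overlap in NC embryos, and the order was the same in KD embryos, where PADI6 had 2646, OOEP 975, NPM2 237 and ZBED3 0.395 per kb. The OOEP model holds only its coding length of 447 bases, without untranslated ends. How its level per kb would change with these ends counted was not tested. The ZBED3 model has 5369 bases, of which 657 are coding.

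PADI6 and OOEP lie among relatives whose levels differed widely. The neighbours named in this paragraph were chosen by position and family after values were known. PADI4, the nearest PADI gene, ends 3.58 kb before PADI6 on the same strand. It had 58.5 per kb in NC embryos, against 8.80 for PADI1 and 10.6 for PADI3, while PADI2 had a mean value of 8.36 and was not tested. PADI6 was thus the one abundant PADI transcript of the 5 in the cluster. On chromosome 1, KHDC3L lies 7.82 kb from OOEP, and DPPA5, another small KH-domain gene, lies 19.3 kb from it. DPPA5 was even more abundant than OOEP, with 1636 per kb in NC and 1628 per kb in KD embryos. Its values of 854 to 1061 in NC lay within those of 701 to 1206 in KD libraries.

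NLRP5 and NLRP2 were not found by name, but other members of the same receptor family, several of them expressed in oocytes, were. NLRP9, NLRP11, NLRP13 and NLRP8 lie on chromosome 6, where NLRP8 ends 3.61 kb before NLRP5. NLRP9 had 2558 per kb in NC embryos, a level next to that of PADI6 with overlapping ranges, and NLRP11 had 1492, NLRP13 511 and NLRP8 253 per kb. NLRP9 averaged 9638 ± 438 in NC and 9193 ± 833 in KD embryos, and NLRP11 averaged 5176 ± 350 and 4921 ± 102 (SD, n = 3 each). Both differed by -0.07 on the log2 scale, with standard errors of 0.09 and 0.08 (limma adjusted p = 0.997 for both). NLRP13 and NLRP8, named after their values were seen, had log2 fold changes of -0.07 and -0.09. The KD values of NLRP8 (965, 977 and 983) were all below its NC values (1002 to 1065), yet its adjusted p was 0.997 as well. These genes are related copies, and reads that fit more than 1 of them may have been divided between them.

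**Figure D2:**
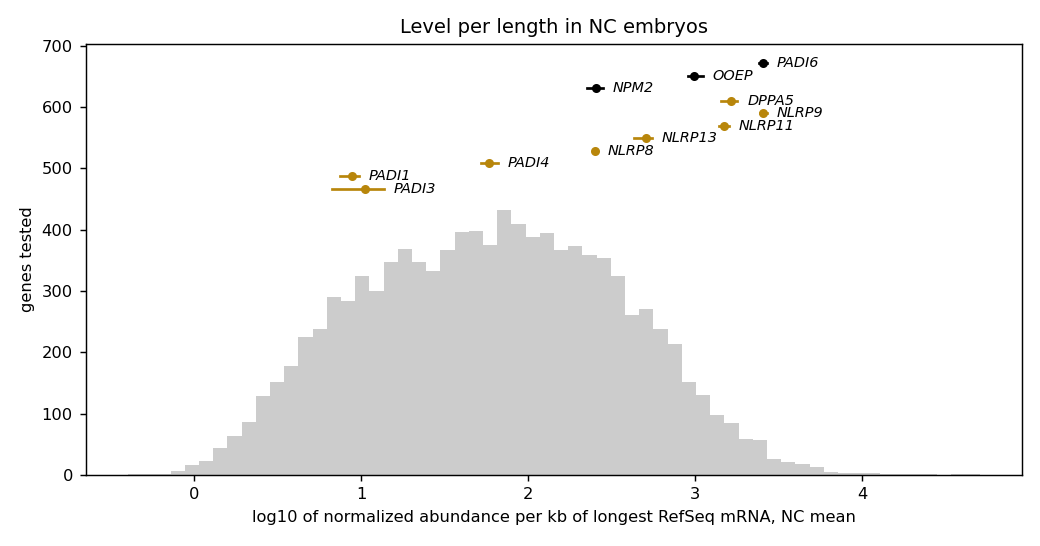
Histogram of the NC level per kb of longest RefSeq mRNA (horizontal axis, log10 scale) over all genes tested that have a RefSeq mRNA (vertical axis, number of genes). Points above it, at arbitrary heights, mark the NC means of PADI6, OOEP and NPM2 (black) and of relatives (ochre), with lines from the lowest to the highest NC library. PADI6 lies in the upper end with NLRP9, and the PADI relatives lie in the middle or lower part.

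Of the 17 NLR family relatives listed, 13 were found, 9 were tested and 0 were called. Their median log2 fold change was -0.07, with a range from -0.09 for NLRP8 to 0.45 for NOD2, against a median of 0.003 over all genes tested. NOD2 and NLRP3, both innate immune sensors, had the largest changes at 0.45 and 0.40, with NC means of only 15.0 and 17.4. NLRP8 was the 1 gene of the 9 whose groups did not overlap, where 9.79% of all genes did so.

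Of 21 relatives of the other members, 16 were found, 15 tested and 0 called, with a median log2 fold change of -0.02. The most abundant were NPM1, the nucleolar relative of NPM2, with 5570 ± 330 in NC and 5366 ± 391 in KD embryos, and DPPA5 (SD, n = 3 each). NPM1 had 3876 per kb in NC embryos, far above the 254 per kb of NPM2. NPM3, a further nucleoplasmin named here for its family, had 419 per kb. The largest log2 fold changes were 0.39 for both ZBED5 and ZBED4, relatives of ZBED3 with NC means of 33.2 and 40.2. In this list 1 gene, TLE2, named after its values were seen, had groups that did not overlap, 1 of 15 beside 9.79% of all genes.

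Of 36 other mammalian maternal-effect genes, 33 were found, 28 tested and 0 called by limma, and 2 had an unadjusted p below 0.05, beside 4.61% of all genes. Their median log2 fold change was -0.01, with 12 above and 16 below 0. The oocyte linker histone H1FOO was the most abundant, at 21467 ± 2594 in NC and 20006 ± 2662 in KD embryos. YAP1, the effector of Hippo signalling, followed with 10451 ± 433 and 10015 ± 544 (SD, n = 3 each). ZAR1, an oocyte RNA-binding protein needed at the first cleavage and named here as an example, had 451 ± 81.4 and 448 ± 50.4 (SD, n = 3 each). The largest log2 fold changes were 0.36 for SOHLH2, an oogenesis factor with an NC mean of 32.2, and 0.33 for TRIM24, a chromatin reader (adjusted p = 0.904 by limma). TRIM24, TRIM33 and UBE2A, the last 2 named after their values were seen, had groups that did not overlap, 3 of 28 genes beside 9.79% of all genes.

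The oocyte partners were genes named in connection with the listed members in the oocyte, such as DNMT1 and UHRF1 for DPPA3 or AXIN1 for ZBED3. Of 14 listed, 11 were found and tested, 0 were called and 3 (KDM1B, TET3 and GSK3B) had an unadjusted p below 0.05, beside 4.61% of all genes. The same 3 had groups that did not overlap, beside 9.79% of all genes. DNMT1, the maintenance DNA methyltransferase, was the most abundant with 285541 ± 26531 in NC and 331406 ± 27884 in KD embryos, at a log2 fold change of 0.22 (adjusted p = 0.997 by limma). UHRF1, which guides DNMT1 to replicated DNA, had 13342 ± 1183 and 14446 ± 593 (SD, n = 3 each). The largest log2 fold changes were 0.34 for GSK3B, a kinase of the Axin complex, and -0.33 for KDM1B, a histone demethylase of the growing oocyte. KDM1B had values of 2917, 2800 and 3036 in NC and 2408, 1988 and 2599 in KD replicates 1 to 3. Its groups did not overlap, but its adjusted p was 0.632 by limma. TET3, which oxidizes methylated cytosine in the early embryo and was named after its values were seen, was at 4189 to 5313 in NC and at 5666 to 5859 in KD libraries (adjusted p = 0.997 by limma).

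**Figure D3:**
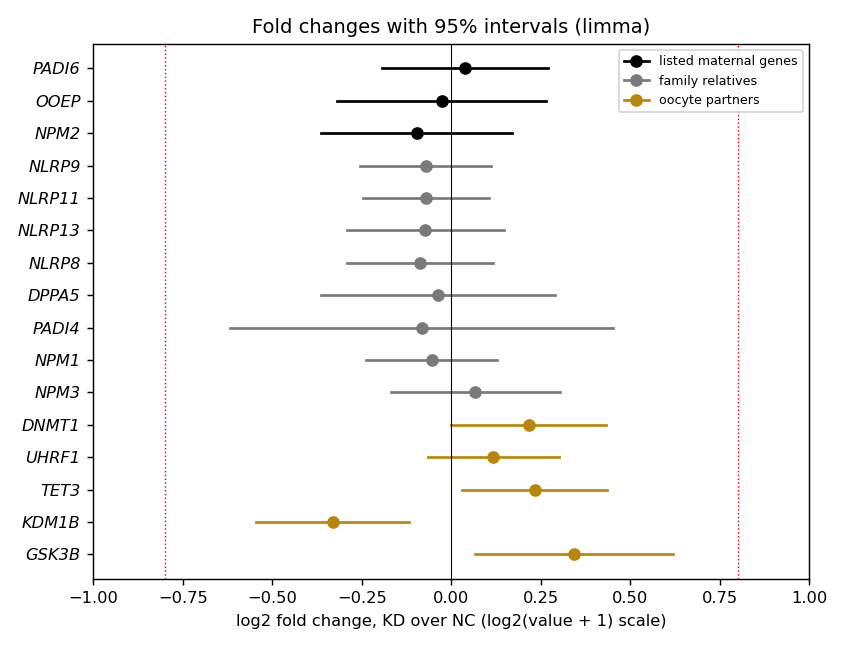
Log2 fold change of KD over NC (horizontal axis, log2(value + 1) scale) for PADI6, OOEP and NPM2 (black), 8 of the family relatives (grey) and 5 oocyte partners (ochre), with 95% intervals from limma. Dotted red lines mark the study's threshold of 0.8 in either direction. The intervals of these genes lie between them, and those of the 3 members include 0. Low relatives with wider intervals, such as NLRP3 (-0.435 to 1.226) and PADI3 (-1.045 to 0.576), are not drawn.

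The group differences of PADI6, OOEP and NPM2 were smaller than the spread between their libraries. PADI6 and OOEP deviated from their own means in the same direction in 6 of 6 libraries, and NPM2 in the opposite direction in 6 of 6. Of all genes tested, 3.87% shared the 6 signs of PADI6 and 4.04% had the opposite ones. KD replicate 1 was high and KD replicate 3 low in both complex genes. For PADI6 the log2 deviations there were 0.27 and -0.26, and for OOEP 0.16 and -0.26, while NPM2 stood at -0.16 and 0.06. The residual SD on the log2 scale was 0.20 for PADI6, 0.19 for OOEP and 0.13 for NPM2, against a median of 0.21 over all genes tested. Among genes with a mean within 1.5-fold of that of PADI6, 8.5% had a larger residual SD, compared with 27.6% for OOEP and 58.7% for NPM2. After a correction of each library for GC content and transcript length, the residual SD of OOEP fell from 0.19 to 0.12, that of PADI6 from 0.20 to 0.17, and that of NPM2 went from 0.13 to 0.14. Over the 10353 genes corrected, the median fell from 0.196 to 0.180.

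Without KD replicate 3 the log2 fold change of PADI6 was 0.18 and that of OOEP 0.10, and without KD replicate 1 they were -0.09 and -0.12. None of these 4 values passed an adjusted p of 0.05 by limma. The sign of the small PADI6 and OOEP differences thus depended on which of these KD libraries was included, and that of OOEP also changed without NC replicate 2, to 0.06.

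**Figure D4:**
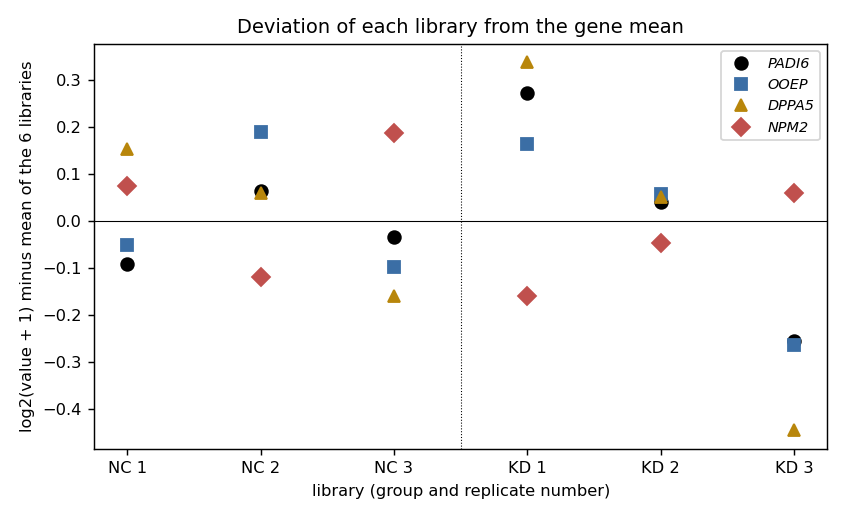
Log2(value + 1) of PADI6, OOEP, DPPA5 and NPM2 minus the gene's mean over the 6 libraries (vertical axis) in each library (horizontal axis), with a dotted line between NC and KD. PADI6 and OOEP share their sign in every library, NPM2 has the opposite sign, and KD replicates 1 and 3 hold the largest deviations of PADI6.

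The genes most like PADI6 and OOEP were ranked by Pearson's r with the mean of the 2 genes' centred log2 values over the 6 libraries, among 11983 other genes. The 5 nearest were CDS1 (r = 0.996), an enzyme of phosphatidylinositol synthesis, MVP (r = 0.985), the major vault protein, DCTN4 (r = 0.983), a dynactin subunit, SMCO4 (r = 0.982) and DTX2 (r = 0.981), a ubiquitin ligase of the Deltex family. CDS1 was at 541 to 845 and MVP at 702 to 1173 over the libraries, each with its lowest value in KD replicate 3 and its highest in KD replicate 1. Pearson's r does not reflect the size of the deviations, and DCTN4 was at only 1439 to 1586, with a residual SD of 0.056 on the log2 scale. In all, 170 genes had an r of at least 0.9. The 147 of these with a RefSeq mRNA had a median GC content of 58.1%, against 50.6% over all tested genes that have one. The median length of their longest mRNA was 2470 bases, against 3715 over those tested genes. With 6 libraries and this many genes, such values describe these libraries only.

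A lower value in pooled embryos can stand for fewer embryos with the transcript or for less of it in each, and these cannot be told apart here. Protein levels of the complex were not measured in these libraries.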

How the data were processed

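The authors assigned reads to porcine transcripts (Sscrofa11.1) with Salmon (0.14.1 in the submitters' processing notes), used DESeq2, and deposited 1 normalized signal value per Ensembl gene and library. These values are not raw counts: their median ratios are equal between libraries. Of the low values, 55.0% to 70.1% per library lay within 0.02 steps of a multiple of 1 read, as values scaled from counts can. No count test was therefore run, although the design had allowed for counts. GFP and RFP spike-in RNA were not used here, so changes of total RNA per embryo were not assessed.

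The fit took genes whose mean value was 10 or more, and was made with limma 3.58.1 (R 4.3.3) on log2(value + 1), with a variance trend and Benjamini-Hochberg adjustment over all genes tested. This scale understates the changes of low genes. The fit was tested on simulated data. The paper calls the replicates independent, but neither it nor the labels say whether they came from separate batches of oocytes. The p-values therefore refer to the spread between these libraries only. In limma, a gene's variance is drawn towards that of genes of similar level. Its p-values and intervals thus do not rest on the gene's own spread alone. Exact permutation tests used Python 3.11.15. Unnamed identifiers were named from a reference table for the related lists only. Positions, lengths and GC content come from RefSeq (Sscrofa11.1), which matched 10353 of 11986 tested genes.

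The members and lists were chosen with earlier results of these data known. Named genes were the members, SIN3A, the 2 largest changes and the 2 highest NC means of each related list, and the 5 genes most like the mean of the tested complex members. ZBED3, untested, was left out of that mean. Alternatives were other pseudocounts (0.1, 10), filters (none, 100) and scalings (TMM-like, quantile), no variance trend, a robust empirical Bayes step, the replicate block, a GC content and length correction, and leaving out each library.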

Additional observations from a re-analysis of the deposited data

How the results depend on the processing

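No member was called in any alternative, with limma adjusted p-values no lower than 0.820 for PADI6, 0.938 for OOEP and 0.896 for NPM2. NPM2 was lower in KD in every alternative run, from -0.18 to -0.027 when 1 library was left out. In the same way PADI6 ranged from -0.088 to 0.176 and OOEP from -0.115 to 0.098 on the log2 scale. PADI6 changed sign only without KD replicate 1, while OOEP changed sign without NC replicate 2 (0.061) and without KD replicate 3 (0.098). OOEP was also at 0.050 with the GC and length correction, alone or with the replicate block. The order of the 4 levels was the same with the median mRNA length and in KD embryos.

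Over all genes, 19 were called. The number was 0 without the variance trend (622 at an unadjusted p below 0.05), 35 with the GC and length correction and 59 with that correction and the replicate block. Both tested 10353 genes in place of 11986, and the same 10353 genes uncorrected, a setting chosen after seeing the data, gave 21 calls without the replicate block and 37 with it. It ranged from 11 to 19 when 1 library was left out, with 11 without KD replicate 2 and 12 each without NC replicate 2 and without NC replicate 3. With the replicate block alone it was 26. Libraries of the same number had correlations of their deviations of 0.109, 0.111 and 0.087, and 6 of 6 correlated best with their own number, but the sources do not state a pairing. SIN3A stayed lower, from -4.198 to -3.224 without 1 library. At -3.815 in both, it had a limma adjusted p of 0.469 under the robust step and 0.423 when no trend was fitted. The standard error of SIN3A was 0.584 and 0.494 there, against 0.305 in the main fit. Its residual SD was 0.739, and 0.0% of genes with a mean within 1.5-fold of its own had a larger one. The cause of this spread was not tested. Low values limit ZBED3 most, at 0 to 7 estimated reads.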

Other observations

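PADI6 was highest in KD replicate 1 and lowest in KD replicate 3, and OOEP was lowest in KD replicate 3 but highest in NC replicate 2. Of the 11 oocyte markers found, 5 had the extremes of PADI6 (FIGLA, KPNA7, ZP2, ZP3 and ZP4), as had 4.45% of all genes tested, and the other 6 had not. FIGLA, at only 4.30 to 11.7, was not tested and is outside the genes behind that share. BMP15, for example, was highest in KD replicate 2, GDF9 and BTG4 in NC replicate 1 and H1FOO in NC replicate 2. ZP3, a zona pellucida glycoprotein, deviated from its own log2 mean by 0.32 and -0.32 in KD replicates 1 and 3, and KPNA7, an oocyte importin, by 0.24 and -0.23. DPPA5, which is not among these markers, deviated by 0.34 and -0.45. The pattern was counted after the values were seen, and its cause was not tested.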
